A study of Mus musculus with 8 samples.

Results

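Among 8 RNA-seq libraries from kidneys of E14.5 mouse embryos, 3 held abundant transcripts of differentiated tubules and 5 held few. The division was made on Hnf4a, which encodes a nuclear receptor of the proximal tubule: libraries above 1000 normalized counts of Hnf4a were called advanced, and those below 500 nascent. The advanced libraries were control 4, mutant 3 and mutant 4, and the nascent libraries were controls 1 to 3 and mutants 1 and 2. Each library came from the kidney pair of 1 embryo. All embryos carried Six2-GFPcre tg/+, a transgene with Cre activity in nephron progenitors, and Etv5fl/fl, so the controls also carried the Cre and both floxed Etv5 alleles. Controls were Etv4+/- and mutants Etv4-/-, and nothing in the labels restricts the loss of Etv4 to that cell type. The labels call the controls littermates without saying which embryos shared a litter. Each library name holds a 3-digit number, which control 4 and mutant 4 share, and no number occurs in both classes. The sources used here do not say what the number stands for, so class and number cannot be told apart.

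In the embryonic kidney, nephron progenitors form vesicles that elongate into nephrons, and the segments of a nephron switch on their own genes in turn. The proximal tubule takes up filtered protein through the receptors megalin and cubilin and reabsorbs solutes through membrane transporters, the loop of Henle reabsorbs salt, and podocytes form the filtration barrier. HNF4A is a transcription factor that acts in proximal tubule maturation. A kidney pair mixes all of these cells, so fewer cells of a type and less RNA per cell cannot be told apart here.

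Since the libraries were selected on measured Hnf4a, the advanced and nascent classes are described and not tested. Hnf4a stood at 1.84, 193 and 96.9 normalized counts in controls 1 to 3 and at 197 and 282 in mutants 1 and 2, against 1547 in control 4, 2262 in mutant 3 and 4877 in mutant 4. The values on either side of the threshold were 282 in mutant 2 and 1547 in control 4. Within the nascent class control 1 lay well below the other 4 libraries.

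Slc12a1, Lrp2 and Cubn, named as markers beside Hnf4a with earlier results of these data known, followed the same split. They did not set the classes, and their split is given as a description. Slc12a1, the sodium-potassium-chloride cotransporter of the loop of Henle, was at 0, 14.2 and 0 in controls 1 to 3, at 1.63 and 0 in mutants 1 and 2, and at 332, 35.7 and 207 in control 4, mutant 3 and mutant 4. Lrp2, which encodes megalin, was at 208, 404, 271, 403 and 390 in the nascent libraries (controls 1 to 3, then mutants 1 and 2, the order used throughout) and at 819, 1393 and 2888 in the advanced libraries (control 4, mutant 3, mutant 4, likewise). Cubn, which encodes cubilin, was at 18.4, 30.01, 21.4, 35.9 and 31.8 against 69.2, 159 and 512. No nascent library reached the lowest advanced library for any of the 4 genes. The order within the advanced class was not the same for all: mutant 4 was highest for Hnf4a, Lrp2 and Cubn, and control 4 for Slc12a1.

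**Figure D1:**
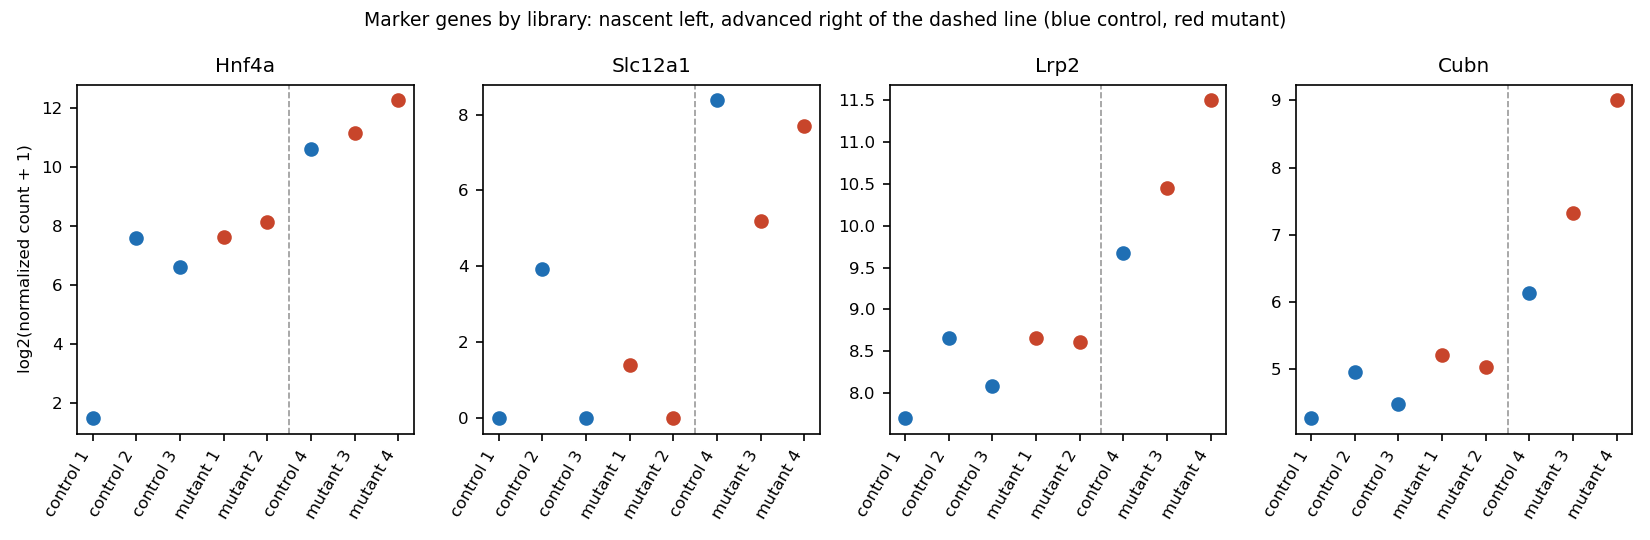
Level of Hnf4a, Slc12a1, Lrp2 and Cubn in each of the 8 libraries, as log2 of the normalized count plus 1, with a separate vertical scale for each gene; each point is 1 library, blue for control and red for mutant, nascent left and advanced right of the dashed line. The 3 advanced points lie above the 5 nascent points in every panel, and control 1 is far below the other nascent libraries for Hnf4a.

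Estimated counts totalled 15515139 in control 4 and 34114519 to 39548327 in the other 7 libraries. Lars2, the gene of a mitochondrial tRNA synthetase, took 18.4% of the counts of control 4 and 0.138% to 0.476% of those of the other libraries, and without it the total of control 4 was 12662972. Control 4 is also the only advanced control, so values in it carry the largest counting error. Libraries were scaled by median-of-ratios size factors. Differences between the classes come from a linear fit that also holds genotype, on log2(normalized count + 1), and are given in log2 units with the SE of the fit.

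Of 21291 genes in the table, 15340 reached 10 normalized counts in 3 or more libraries. Genes were counted as higher or lower where all 3 advanced libraries lay on 1 side of all 5 nascent libraries and the fitted difference was at least 1 log2 unit. By that description 442 genes (2.88%) were higher in the advanced libraries and 114 (0.743%) were lower, and the median difference over all 15340 genes was -0.0013. Among the higher genes, 54 were under 10 normalized counts in every nascent library and so entered through the advanced libraries alone. Among the lower genes, 28 were under 10 in every advanced library. Because Hnf4a in the same libraries set the classes, nothing is read from these shares. Leaving out mutant 3 gave 612 higher and 258 lower genes, leaving out control 4 gave 504 and 187, and leaving out mutant 4 gave 423 and 166.

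The genes counted as higher or lower had to differ in the same direction in both genotypes, so their sizes within each genotype are a description. Of the 442 higher genes, 337 differed by more than 1 log2 unit both between control 4 and the 3 nascent controls and between the advanced and nascent mutants. Of the 114 lower genes, 62 did so. These 2 differences share no library, and across all genes tested their Pearson r was 0.42, given as a description because genes are not independent replicates. The 3 advanced libraries did not reach the same level: 294 of the higher genes were highest in mutant 4, 115 in control 4 and 33 in mutant 3. The median log2 ratio of mutant 4 to control 4 was 0.48 over the higher genes and 0.034 over all genes.

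**Figure D2:**
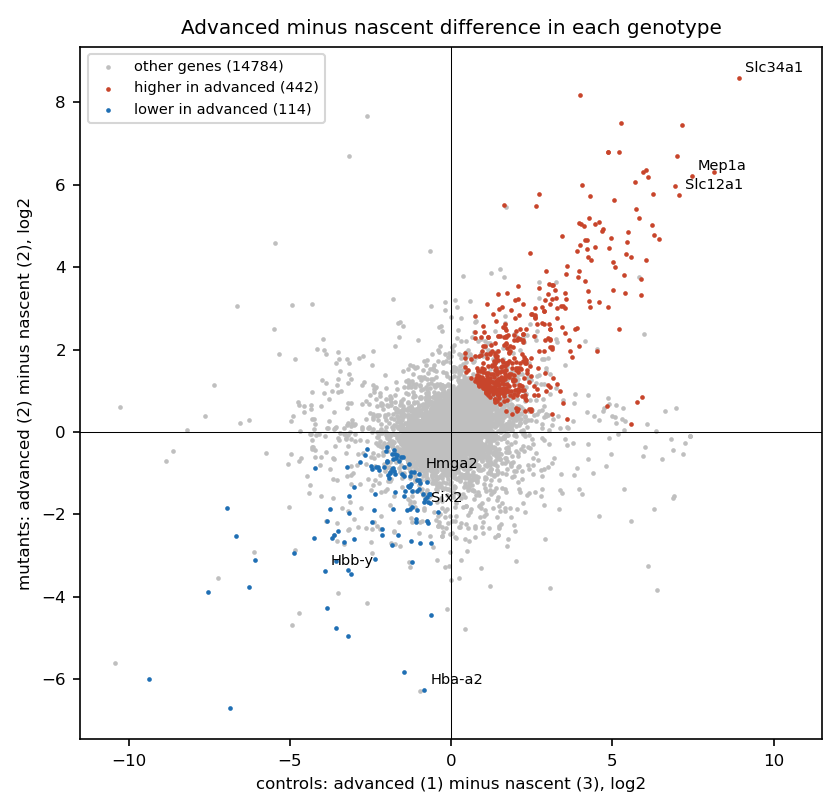
Difference between advanced and nascent libraries in log2 units, within controls (1 advanced, 3 nascent; horizontal axis) and within mutants (2 advanced, 2 nascent; vertical axis), 1 point per gene; red marks the 442 higher and blue the 114 lower genes. Slc34a1, Mep1a and Slc12a1 lie far along both axes, Hbb-y is low on both, and Hba-a2 is low mainly in mutants.

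Promoter sequences were read for genes that were high together in the advanced libraries. Those of 2 named genes with a TATA box close to the start are shown, from RefSeq on GRCm38.p6, on the gene's strand, 5′ to 3′, with the box TATAAA in capitals. They belong to Cldn2, the claudin that forms cation pores in the proximal tubule (chrX:139800708-139800807, + strand), and to Aqp3, a basolateral water channel of the collecting duct (chr4:41098184-41098283, - strand), and both lie upstream of the gene.
Cldn2: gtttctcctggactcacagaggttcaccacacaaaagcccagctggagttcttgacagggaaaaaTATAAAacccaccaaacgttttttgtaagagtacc
Aqp3: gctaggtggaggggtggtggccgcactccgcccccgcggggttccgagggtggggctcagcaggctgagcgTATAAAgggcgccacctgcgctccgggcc
The box begins 35 bases before the start of Cldn2 and 29 before that of Aqp3.

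Windows of 250 bases before to 50 after the start were found for 11562 of the genes tested. The box TATAAA, on either strand and in any window of a gene, was present for 1055 of them (9.12%), for 45 of 301 higher genes (14.95%) and for 8 of 70 lower genes (11.4%). The sequence CCAAT was present for 42.6% of all genes, 39.9% of higher genes and 42.9% of lower genes. The core of an HNF4 site, CAAAGTCCA, was present for 52 genes (0.450%), 3 higher genes (0.997%) and 0 lower genes. The windows also differed in base composition, with a median GC content of 60.7% over all genes, 54.3% over higher genes and 58.5% over lower genes, and the part of GC content in these shares was not tested. A match is a description of these letters and not a binding site.

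Of 53 listed proximal tubule genes, 52 were in the table, 41 passed the filter and 27 were higher in the advanced libraries, with a median difference of 2.41 over the 41 against -0.0013 over all genes. Of the 41, 5 were under 10 normalized counts in every nascent library and passed the filter through the advanced libraries alone, so the count and median rest in part on the filter. None of the 41 was lower. The 27 include Hnf4a, which set the classes, and the markers Lrp2 and Cubn. Mutant 4 was the highest advanced library for 36 of them, control 4 for 4 and mutant 3 for 1. Without control 4, mutant 3 or mutant 4 in turn, 24, 26 and 22 genes were higher. These genes fall into transcription factors, endocytosis, transporters, and enzymes with brush border proteins. Counts of higher genes in each part stand beside 2.88% of all genes.

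The 4 listed transcription factors of the proximal tubule include Hnf4a, whose call was fixed because it set the classes. All 4 had positive differences and 3, Hnf4a among them, were counted as higher. Hnf4g, a relative of Hnf4a, was at 0, 8.69, 0, 0.82 and 0 against 33.2, 21.8 and 42.2, a difference of 4.31 (SE 1.04). All 3 advanced libraries were above the highest nascent library, control 2. Maf, also active outside the tubule, ran from 835 to 954 in the nascent libraries and stood at 1343, 1749 and 1954 in the advanced libraries, a difference of 0.82 that lies under 1 log2 unit.

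Of the 8 endocytosis genes, 6 were higher, and the 2 that were not were abundant in every library. The 6 include the markers Lrp2 and Cubn. Amn, which encodes the cubilin partner amnionless, was at 0, 23.7, 12.1, 8.16 and 13.1 against 387, 209 and 825, a difference of 5.47 (SE 0.94). Pdzk1, a scaffold for apical transporters, was at 78.6, 230, 168, 193 and 242 against 1703, 1941 and 4981, a difference of 3.71 (SE 0.37). Folr1, a folate receptor, was at 61.7 to 122 against 495, 499 and 1046, a difference of 2.70 (SE 0.27), and Cltrn, a partner of amino acid transporters, differed by 2.89 (SE 0.52). For these 4 genes all 3 advanced libraries lay above every nascent library. Dab2, an adaptor for megalin uptake, overlapped between the classes with a difference of 0.24, and the chloride-proton exchanger gene Clcn5 differed by -0.043.

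The largest difference of any named gene was that of a proximal tubule transporter. Of 20 listed genes 15 passed the filter and 10 were higher, with 6 higher without mutant 4. Slc34a1, the sodium-phosphate cotransporter, was at 0, 0, 0.93, 0 and 0 in the nascent libraries and at 601, 131 and 1107 in the advanced libraries. Its fitted difference of 8.72 (SE 0.78) depends on the value added before the log and was 5.56 with 10 added in place of 1. The urate transporter Slc22a12 was at 0 to 5.92 against 111, 59.2 and 282 (5.96, SE 0.78), and its row is identical to that of another gene model, so the gene the reads belong to is uncertain.

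The organic anion transporter Slc22a6 was at 0, 3.95, 7.45, 4.89 and 18.8 against 166, 124 and 330, a difference of 4.81 (SE 0.79). Slc5a8, a transporter of lactate and other monocarboxylates, was at 21.2, 0, 6.57, 3.26 and 1.63 against 141, 28.8 and 325, a difference of 4.80 (SE 1.07). Slc5a2, the sodium-glucose cotransporter of the early proximal tubule, was at 0 to 3.97 against 50.1, 15.6 and 56.0. Mutant 3 was the lowest of the advanced libraries for all 5 of these transporters. Not every transporter separated: the bicarbonate transporter Slc4a4 was at 170 to 284 in the nascent libraries and at 271, 287 and 363 in the advanced libraries, with overlapping ranges, and the organic cation transporter Slc22a2 was at 1.74 in mutant 3.

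Brush border proteins and enzymes showed the same separation, with 14 of 21 listed genes passing the filter and 8 higher. Mep1a, which encodes a subunit of the brush border protease meprin, was at 0, 25.3, 0, 7.34 and 4.08 against 523, 182 and 1267, a difference of 6.75 (SE 1.11). Vil1, which encodes the microvillar protein villin, was at 9.21, 30.01, 6.52, 10.6 and 8.16 against 260, 314 and 953, a difference of 5.11 (SE 0.57). Pck1, the enzyme that commits oxaloacetate to glucose synthesis, was at 0 to 18.2 against 63.7, 39.2 and 128, a difference of 4.25 (SE 0.80).

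Enzymes of fatty acid oxidation and peroxisomes as a list did not separate. Of 14 measured genes 1 was higher, the median difference was 0.17, and summed normalized counts were 21459 to 23905 in the nascent and 22893 to 25569 in the advanced libraries. The gene counted as higher was Hao2, a peroxisomal hydroxy acid oxidase, at 2.76 to 10.3 against 113, 44.4 and 300, a difference of 3.84 (SE 0.67). Ppara, a nuclear receptor that controls fatty acid oxidation, was at 0 in control 4, 23.5 in mutant 3 and 65.9 in mutant 4 against 15.01 to 43.3 in the nascent libraries. Its difference of -1.64 (SE 1.01) became 0.66 without control 4.

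Several of the 12 genes with the highest differences lie outside those lists. Sult1d1 was at 0, 0, 0.93, 8.16 and 0 in the nascent libraries and at 354, 88.8 and 646 in the advanced libraries, a difference of 7.10 (SE 0.95). Clrn3, a member of the clarin family, was at 0 to 4.89 against 241, 111 and 565 (6.84, SE 0.83), and Cldn2 at 0 to 30.8 against 379, 253 and 964 (6.54, SE 0.90). The others were Tmem174 (6.38), Spink1 (6.23), Hsd3b8 (6.15), Keg1 (6.15) and Glyat (5.98), of which Glyat encodes a glycine acyltransferase and Spink1 a trypsin inhibitor. Mutant 3 was the lowest advanced library for each of these 8 genes. Sult1d1, Clrn3, Tmem174, Spink1, Hsd3b8 and Glyat were under 10 normalized counts in every nascent library. They passed the filter through the advanced libraries alone, and the size of their differences depends on the value added before the log. Families picked out after the values were seen were the solute carriers, with 29 of 285 measured genes higher and 2 lower, the glucuronosyltransferases with 5 of 9 higher, and the aquaporins with 4 of 8 higher, beside 2.88% higher and 0.743% lower over all genes.

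The loop of Henle followed the proximal tubule. Of 12 listed genes 8 passed the filter and 5 were higher (2.88% of all genes were), with a median difference of 2.79. The 5 include the marker Slc12a1. Irx1, a homeobox gene of the intermediate segment, was at 12.9, 129, 48.5, 26.9 and 41.6 against 794, 619 and 1219, a difference of 4.44 (SE 0.60). Its relative Irx2 was at 14.7 to 61.6 against 374, 206 and 227 (3.37, SE 0.42), and Cldn10, a claudin of the thick ascending limb, at 4.61 to 19.6 against 111, 45.3 and 183 (2.84, SE 0.58). Irx2 and Slc12a1 were highest in control 4, and Irx1 and Cldn10 in mutant 4. The 4 genes that did not pass the filter included Umod, which encodes uromodulin, at 58.1 in control 4, 7.91 in mutant 4 and 0 in mutant 3.

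Of 11 listed genes of the distal and connecting tubule, 7 passed the filter, 2 were higher (2.88% of all genes were) and the median difference was -0.24. Tmem52b was at 8.61, 110, 49.4, 44.9 and 23.7 against 368, 137 and 381, a difference of 2.99 (SE 0.70), and Emx1, a homeobox gene, at 22.1 to 71.01 against 83.0, 131 and 198 (1.44, SE 0.30). Calb1, which encodes a calcium-binding protein, was at 8206 to 11499 in the nascent libraries and at 11411, 7427 and 6068 in the advanced libraries. Control 4 lay inside the nascent range of Calb1 and both advanced mutants below it. Slc12a3, the thiazide-sensitive cotransporter, did not pass the filter.

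Of 18 podocyte genes 5 were higher (2.88% of all genes were), with 3 without mutant 4, and the median difference was 0.67. Nphs1, which encodes nephrin, was at 1.63 to 7.35 against 66.4, 83.6 and 189 (4.19, SE 0.60). It was under 10 in every nascent library and passed the filter through the advanced libraries alone. Ptpro, a receptor phosphatase of podocytes, was at 36.8, 75.8, 67.1, 58.7 and 87.3 against 437, 502 and 892 (3.08, SE 0.30). Clic5 differed by 1.81 (SE 0.25) and Podxl, which encodes podocalyxin, by 1.06. For Nphs1, Ptpro and Clic5 the order was control 4, mutant 3 and mutant 4 from low to high. Wt1, a transcription factor shared by podocytes and nephron progenitors, differed by -0.34.

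**Figure D3:**
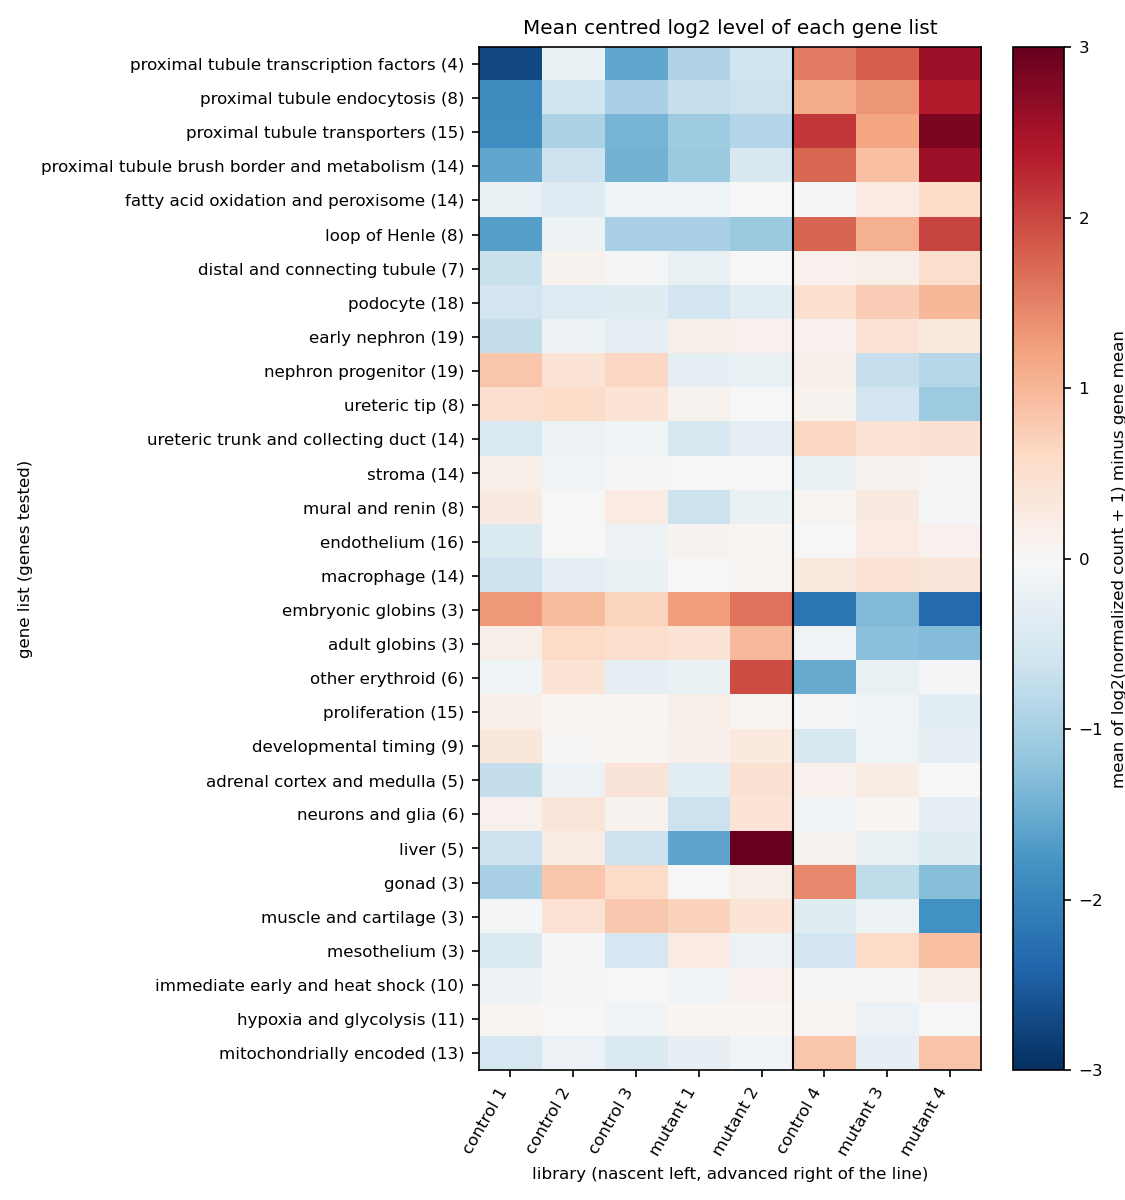
Mean level of each gene list in each library, as the mean over its tested genes of log2(normalized count + 1) minus that gene's mean over the 8 libraries, on a colour scale from -3 (blue) to 3 (red); the vertical line divides the 5 nascent from the 3 advanced libraries and the number of genes is in parentheses. Proximal tubule, loop and podocyte lists are high in all 3 advanced libraries and embryonic globins low, the mitochondrially encoded list is high in control 4 and mutant 4, and the liver list is highest in mutant 2.

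Of 19 genes of vesicles and early nephrons 4 were higher (2.88% of all genes were) and the median difference was 0.23. Hes5, a Notch target, was at 52.5, 148, 124, 144 and 135 against 457, 237 and 338, a difference of 1.52 (SE 0.36). Dll1, a Notch ligand, was at 150, 395, 318, 383 and 481 against 800, 1110 and 1032 (1.43, SE 0.27). Osr2, a zinc-finger factor, stood between 134 and 584 in the nascent controls, at 1028 and 1081 in the nascent mutants and at 1154, 2197 and 2111 in the advanced libraries (1.49, SE 0.40). Within each class the mutants lay above the controls for Osr2. Wnt4, which is expressed in the condensing mesenchyme, differed by -0.095.

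Nephron progenitor genes lay in the opposite direction. Of 19 genes 17 had negative differences, with a median of -0.46. Of the 19, 1 was counted as lower, beside 0.743% of all genes. Without control 4, 4 were, in a fit where 187 of all genes were counted as lower. Eya1, a transcriptional partner of Six2, was at 5308, 3312, 4442, 2794 and 2205 against 2037, 1071 and 795, a difference of -1.27 (SE 0.17). Six2, which maintains the progenitors, was at 13695, 8458, 11174, 3297 and 2799 against 6108, 1181 and 608, a difference of -1.41 (SE 0.26). The Six2 values overlapped between the classes: control 4 was above both nascent mutants and below the 3 nascent controls. All 8 ureteric tip genes had negative differences, with a median of -0.62, and 0 were counted as lower. Without control 4, 2 were, and without mutant 3, where 258 of all genes were lower, 1 was. Among the tip genes Adamts18, a secreted protease, differed by -1.21 (SE 0.25) and Sox8 by -1.15 (SE 0.30).

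In the stalk and collecting duct 4 of 14 genes were higher, beside 2.88% of all genes. Aqp2, the vasopressin-regulated water channel, was at 12.9, 9.48, 23.3, 4.89 and 12.2 against 125, 89.7 and 125, a difference of 3.36 (SE 0.46). Upk3a, a urothelial plaque protein, was at 11.4 to 50.5 against 266, 109 and 113 (2.72, SE 0.37), and its partner Upk1b at 4.90 to 15.7 against 85.8, 43.5 and 64.2 (2.63, SE 0.46). Aqp3, the basolateral channel, differed by 1.22 (SE 0.33), and by 0.96 without control 4. For both uroplakins control 4 was the highest library, as it was for 4 of the 41 proximal tubule genes.

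In other cell types 0 of 14 stromal, 0 of 8 mural and renin, and 0 of 16 endothelial genes were counted as higher or lower, with medians of -0.16, 0.28 and 0.14. Without control 4, 2 mural genes were higher, without mutant 4, 1 was, and without mutant 3, 1 stromal gene was. At 2.88% of all genes higher, counts this small say little about lists of these sizes. Acta2, which encodes smooth muscle actin, came closest, at 902 to 1544 in the nascent and 2449, 2599 and 2444 in the advanced libraries, a difference of 0.98 (SE 0.15). Tagln, a smooth muscle actin-binding protein, differed by 0.93 (SE 0.17). Both mural genes were above every nascent library in all 3 advanced libraries, as were 1531 of all 15340 genes tested. Of the 8 mural and renin genes 5 had positive and 3 negative differences. Of 14 macrophage genes 13 had positive differences and Lyz2, which encodes lysozyme, was counted as higher at 1.15 (SE 0.25), with 0.97 in controls alone. Without mutant 3, and likewise without mutant 4, 2 macrophage genes were higher.

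Adrenal and gut markers were low in both classes. Summed normalized counts of 9 adrenal genes were 240 to 360 in the nascent and 194 to 360 in the advanced libraries, and those of 4 gut genes were 76.5 to 209 and 145 to 236. The gut sums were mostly Shh, at 75.5 to 187 in the nascent and 130 to 213 in the advanced libraries. Liver genes summed to 49.9 to 139 in 4 nascent libraries, 1383 in mutant 2, and 416, 212 and 517 in the advanced libraries. Mutant 2 also held the highest Apoa2, a liver apolipoprotein, at 233, and the highest erythroid score. The 5 measured liver genes had a median difference of -0.82 and 3 were negative. Apoa2 differed by -3.73 (SE 1.28) with overlap, and Apoa1, another apolipoprotein, by -3.95 (SE 1.01) and was counted as lower, with mutant 2 at 284. Serpina1a, which encodes an alpha-1-antitrypsin, was the liver gene counted as higher, at 2.79 to 36.2 against 145, 134 and 116 (3.06, SE 0.57, and 1.96 without control 4). It belongs to a family of near-identical copies, so the copy measured is uncertain. The part of liver RNA in these results was not tested.

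The 13 mitochondrially encoded genes did not follow the Hnf4a split. All 13 were above every nascent library in control 4 and in mutant 4, and 1 was in mutant 3. CYTB, which encodes cytochrome b, was at 46040, 55475, 51329, 43855 and 52533 in the nascent libraries, at 125293 in control 4 and 122205 in mutant 4, and at 54968 in mutant 3. The 2 high libraries, control 4 and mutant 4, share a number in their names. Without mutant 3, 10 of the 13 were counted as higher. With it ND6 was the gene counted as higher (1.13, SE 0.23), and its difference was 0.26 without control 4 and mutant 4.

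Globin transcripts, which come from blood in the tissue, separated by developmental type. Red cells made in the yolk sac carry embryonic globins, and those made later in the fetal liver carry adult globins. Hbb-y, an embryonic beta-like globin, was at 27085, 25623, 20349, 28570 and 36371 in the nascent libraries and at 1594, 5118 and 1857 in the advanced libraries, a difference of -3.62 (SE 0.28). Hba-x, the embryonic alpha-like globin, was at 2327, 1656, 1525, 2381 and 3025 against 196, 382 and 182 (-3.28, SE 0.23). Hbb-bh1 was at 181, 132, 97.8, 154 and 210 against 24.9, 24.4 and 16.7 (-2.78, SE 0.31). All 3 embryonic globins were therefore lower in each advanced library than in any nascent library, in controls as in mutants.

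Adult globins overlapped between the classes. Hbb-bt, an adult beta globin, was at 24161, 33088, 32196, 27951 and 42355 against 21475, 27969 and 29243, a difference of -0.35 (SE 0.15). Hbb-b1 ran from 103671 to 169289 in the nascent and from 124547 to 140982 in the advanced libraries. The log2 ratio of Hbb-y to Hbb-bt, which does not depend on how the libraries were scaled, was -0.66 to 0.16 in the nascent and -3.98 to -2.45 in the advanced libraries. Hba-a1 and Hba-a2 are near-identical copies and their split is uncertain: Hba-a2 alone was at 50168, 1818 and 1879 in the advanced libraries against 86046 or more in the nascent, while the sum of both was 153567 to 203029 against 181540 to 319861. Of 6 other erythroid genes all had negative differences and 1 was counted as lower, beside 0.743% of all genes. It was Slc4a1, the red cell anion exchanger (-1.33).

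**Figure D4:**
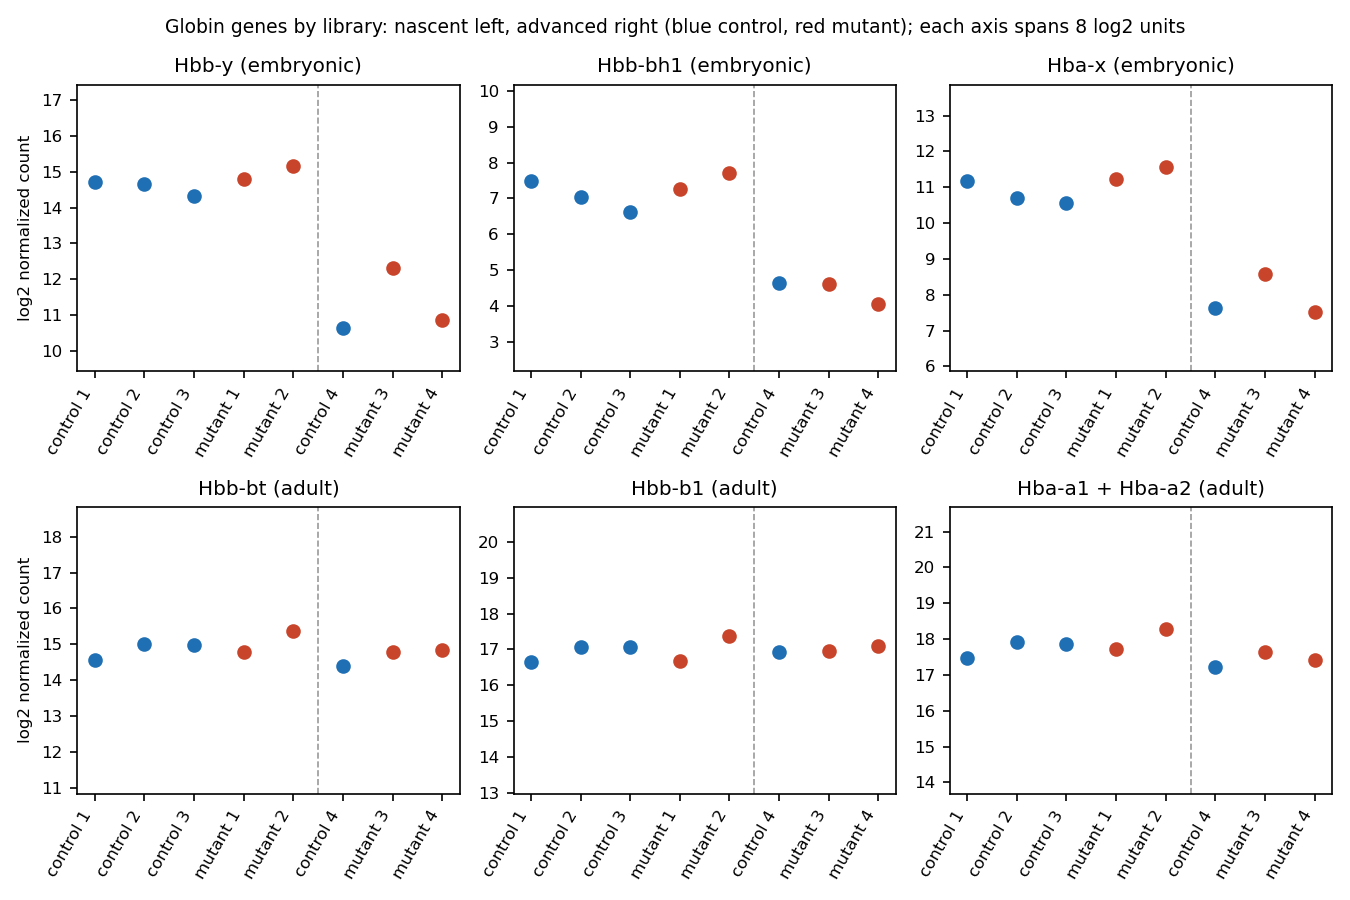
Globin genes in each of the 8 libraries as log2 normalized counts, each vertical axis spanning 8 log2 units; blue is control, red is mutant, and the dashed line divides nascent (left) from advanced (right). Hbb-y, Hbb-bh1 and Hba-x are lower in all 3 advanced libraries, while Hbb-bt, Hbb-b1 and the sum of Hba-a1 and Hba-a2 overlap.

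Hmga2, a chromatin protein known to decline as embryos age, was also lower. It was at 14902, 13950, 13551, 12883 and 11744 against 7122, 6872 and 5342, a difference of -1.01 (SE 0.09) that lies close to the limit and was -0.99, -0.97 and -0.92 without control 1, mutant 1 and mutant 4. All 9 measured genes of the developmental timing list had negative differences, with a median of -0.47, and Hmga2 was the 1 counted as lower. Of all genes 0.743% were lower. Plagl1, an imprinted zinc-finger gene, differed by -0.80 (SE 0.20) with mutant 3 inside the nascent range. Of 15 proliferation genes 13 had negative differences, with a median of -0.29 and 0 counted as lower. Mki67 differed by -0.72 (SE 0.15) and Top2a, the mitotic topoisomerase, by -0.53 (SE 0.12).

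The 8 lowest named genes were a mixed group. Pet117, an assembly factor of cytochrome oxidase, was at 74.5, 61.3, 96.1, 20.4 and 74.4 against 0, 0 and 7.76 (-4.84, SE 0.85). The zinc-finger genes Zfp973 and Zfp965 were at 50.5 to 78.2 and at 34.2 to 55.1 in the nascent libraries and at 0 to 9.65 and 0 to 2.77 in the advanced libraries. They lie in the same part of chromosome 2 (GRCm38, chr2:176670522-176719085 and chr2:175469985-175482171), where the gene models Gm4724 and Gm14308, named after their values were seen, were also lower (-2.35 and -2.33). Such clustered zinc-finger genes have similar copies, so their counts are uncertain. Rpl34-ps1, a ribosomal protein pseudogene and uncertain for the same reason, was at 3860 to 4873 against 5.63, 0.88 and 2465.

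Col2a1, a cartilage collagen, and Egr1, an immediate early gene, were also lower. Col2a1 was at 6299, 5638, 6286, 4385 and 3725 against 2469, 1750 and 1478 (-1.32, SE 0.09). Egr1 was at 4154, 2110, 2785, 2086 and 1833 against 861, 968 and 532 (-1.58, SE 0.24). The heat shock gene Hspa1a was higher at 1.09 (SE 0.23), with 0.84 without mutant 4. Of 11 hypoxia and glycolysis genes 0 were counted in either direction, with Slc2a1, the glucose transporter, at -0.53 and Bnip3 at 0.51.

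Genotype is labelled and was not used to form the classes, and it was tested. The class term comes from measured Hnf4a in these same libraries, and the adjusted p-values do not account for that. The advanced class held 1 of 4 controls and 2 of 4 mutants, and a term for the class was added to the limma fit of mutant minus control. The p-values measure the spread between these kidney pairs only. With the class term 96 genes (0.626%) rose and 138 (0.9%) fell in mutants at an adjusted p under 0.05, 234 in all, against 12 and 33 without it, and all 45 of the latter were among the 234. These counts moved with every library left out: without controls 1 to 4 in turn 39, 152, 25 and 28 rose and 77, 186, 48 and 75 fell, and without mutants 1 to 4 in turn 14, 13, 50 and 21 rose and 52, 37, 127 and 75 fell. With Hnf4a level in place of the class they were 11 and 36. Ddx3y, a Y-linked gene, was at 561 to 1973 estimated counts in every control and at 0 in every mutant, so genotype and sex cannot be told apart.

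Etv4, the gene that differs between the labelled genotypes, was at 2816, 2803 and 2816 in controls 1 to 3 and 2311 in control 4, against 294, 281, 219 and 164 in mutants 1 to 4. It fell by 3.40 (SE 0.11, adjusted p = 2.05e-07 by limma). Etv5, floxed in both genotypes, fell by 0.68 (SE 0.11, adjusted p = 0.0157), against adjusted p = 0.108 without the class term, and it missed the threshold without control 3 (0.0573), control 4 (0.0757) or mutant 2 (0.0756). In the same fit the difference of advanced minus nascent was -0.46 for Etv4 and -0.47 for Etv5. The authors' deposited table gives log2 fold changes of -3.55 for Etv4 and -0.85 for Etv5. Both lie closer to ratios of mean counts without control 4 than with it, so that table may not cover control 4.

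The other genes with the smallest adjusted p all fell. Moxd1, a monooxygenase-like gene, was at 1460, 1106, 1443 and 1079 in controls 1 to 4 and at 361, 388, 350 and 287 in mutants 1 to 4, and fell by 1.80 (SE 0.12). Gfra1, the GDNF co-receptor of the ureteric tip, was at 6260, 6383, 6162 and 4110 against 3034, 2815, 2246 and 1701. It fell by 1.09 with the class term (SE 0.09, adjusted p = 0.000526) and by 1.24 without it (adjusted p = 0.0435). Control 4 was the lowest control and mutant 4 the lowest mutant for Gfra1, and the genotypes did not overlap. Has2, a hyaluronan synthase, fell by 1.48, Nell1, a secreted factor, fell by 1.74, and Bmp7, which supports progenitor survival, fell by 0.75. Crym, a progenitor marker, fell by 2.60. Sobp fell by 1.79, Ywhaz fell by 1.08 and Klhl9 fell by 0.88, and these 3 did not pass without the class term.

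Of 19 nephron progenitor genes 10 fell with genotype, against 0.9% of all genes, and 0 rose. Six2 fell by 2.20 (adjusted p = 0.00343 by limma). Osr1, a zinc-finger factor of the intermediate mesoderm, fell by 1.57 (adjusted p = 0.0016). Fgf20, a growth factor made by the progenitors, fell by 2.33 (adjusted p = 0.00881), and Robo2, a guidance receptor, fell by 1.14 (adjusted p = 0.00592). The other 6 were Eya1, Meox1, Gdnf, Crym, Capn6 and Rspo1. The count was 5 without the class term, 4 with Hnf4a level in its place, 3 without the trend in the variance, and 5 to 9 when each library was left out, lowest without mutant 2. Without control 1, control 3 or mutant 1 it was 6. With the replicate number as a block beside the class term it was 1. In each of these fits 17 or 18 of the 19 differences were negative. Of 8 ureteric tip genes Gfra1, Wnt11 and Sox8 fell, and the count was 1 to 3 with each library left out.

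The class was set from a proximal tubule gene in these same libraries, so genotype calls of tubule genes with the class term are given as counts and nothing is read from them. Of 41 measured proximal tubule genes 1 rose (0.626% of all genes rose) and 0 fell by limma, and 0 of 8 loop genes and 0 of 7 distal genes passed. A p that misses the threshold does not show that values did not differ.

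For 3 tubule genes the authors' deposited table gives log2 fold changes of 4.97 for Slc22a6, 3.53 for Pdzk1 and 9.20 for Sult1d1. The limma fit gave 2.36, 1.61 and 2.40 for the same genes without the class term and 1.15, 0.68 and 0.62 with it, none past the threshold. For Six2 the authors' deposited table gives -2.49, and the fit gave -2.55 without the class term (adjusted p = 0.0779) and -2.20 with it. The deposited values of these genes lie closer to ratios of mean counts without control 4 than with it. That table may therefore not cover control 4, and its gap to the fit is not read as an effect of the class term.

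Of 19 early nephron genes 2 rose, beside 0.626% of all genes. Pax8, a paired-box factor of the forming nephron, was at 2041, 2171, 2351 and 2989 in controls 1 to 4 and at 3591, 3464, 3924 and 3758 in mutants 1 to 4, and rose by 0.57 (adjusted p = 0.0126 by limma). Cdh6, a cadherin of early proximal cells, rose by 0.77 (adjusted p = 0.0275). Of 8 mural and renin genes 2 fell, beside 0.9% of all genes: Ren1, the renin gene, fell by 2.38 (adjusted p = 0.037) and Des, which encodes desmin, fell by 1.03 (adjusted p = 0.00346). Over all genes 12 rose and 33 fell without the class term, and 11 and 36 did with Hnf4a level in its place. How the calls of Pax8, Cdh6, Ren1 and Des hold in those fits is not given here. Osr2 did not pass with the class term (1.59, adjusted p = 0.0767), and the authors' deposited table gives 2.32 for it. That deposited value too lies closer to the ratio of mean counts without control 4 than with it.

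**Figure D5:**
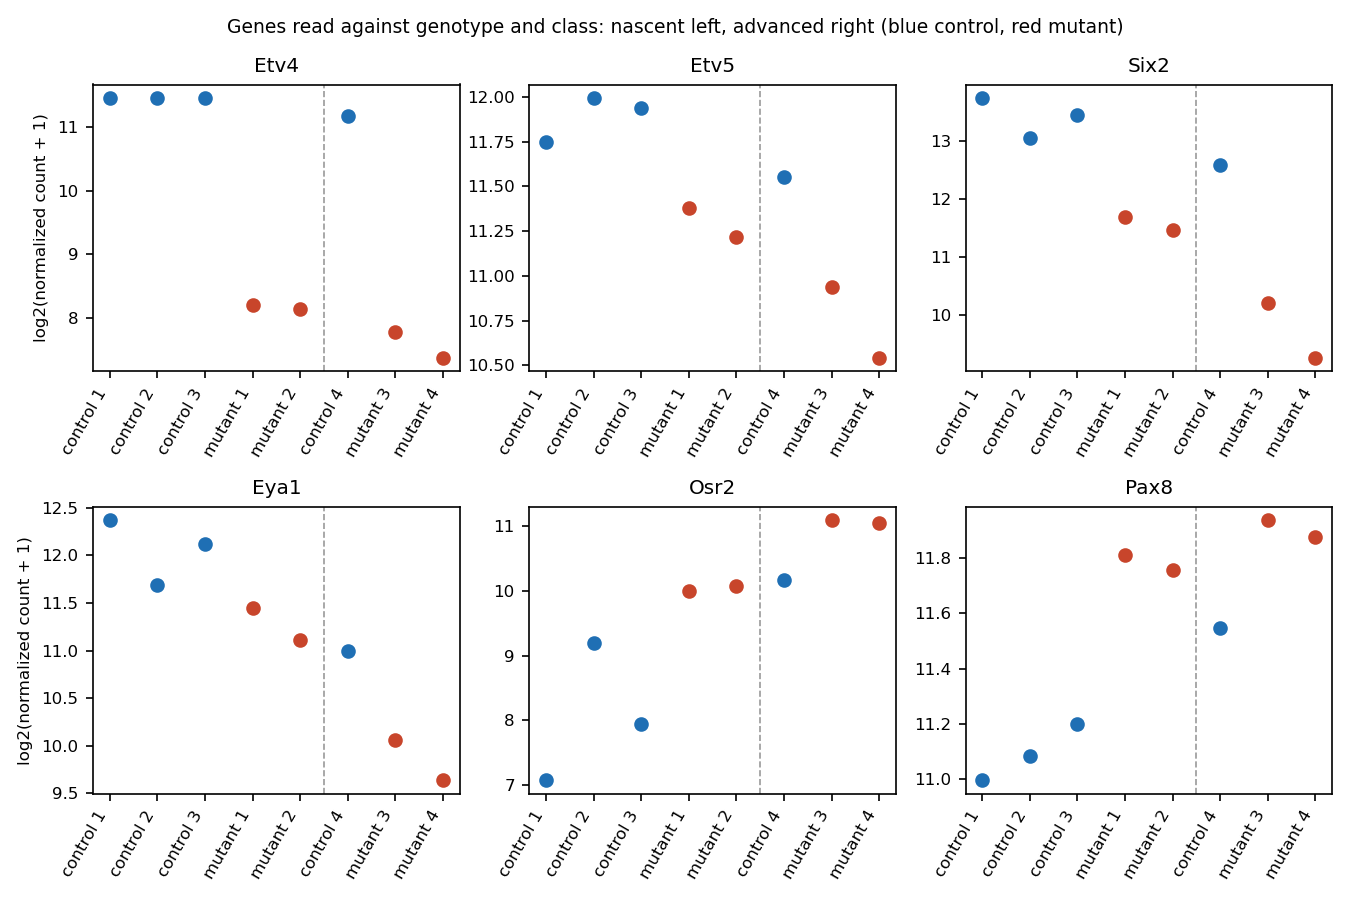
Etv4, Etv5, Six2, Eya1, Osr2 and Pax8 in each library as log2(normalized count + 1), with a separate vertical scale for each gene; blue is control, red is mutant, and the dashed line divides nascent from advanced. Etv4 separates by genotype. For Six2 and Eya1 mutants lie below controls within each class, and advanced lie below nascent libraries within each genotype. For Osr2 both orders are reversed.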

How the data were processed

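Polyadenylated RNA of 4 control and 4 mutant kidney pairs was sequenced from both ends of each fragment, per the labels' protocols. The submitters' processing notes name DESeq2 1.40.2, kallisto 0.46.0, fastp 0.23.2 and build mm10; their roles and settings are not given in these sources. The deposited log2 values are, from the values themselves, log2(estimated count + 1) with no depth correction: 67.8% of the recovered counts above 0 (73.4% of all) were whole within 1e-06. A second deposited table gives the authors' mean normalized count (a signal), log2 fold change, a score (the test statistic) and its p-values for a subset of genes, per the file headers.

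Counts recovered as 2 to the power of the value, minus 1, were divided by median-of-ratios size factors over the 8 libraries (0.361 to 1.27), and Lars2 was left out of library totals. Genes with at least 10 in at least 3 libraries were fitted on log2(normalized count + 1), which understates the change of low genes, with terms for class and genotype in limma 3.58.1 (lmFit, eBayes with trend) in R 4.3.3. The two-sided genotype test used a threshold of 0.05 after Benjamini-Hochberg adjustment over all 15340 genes. Class differences carry no test, since measured Hnf4a set the classes. The steps were run on simulated counts with the same spread setting for every gene and the classes taken as given. That run checks the code and does not show how the calls hold in these libraries. The members and gene lists were chosen with earlier results of these data known.

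Named genes are the 4 markers, the 12 highest and 8 lowest differences among genes counted as higher or lower, up to 4 such members of each list (or the 2 with the largest difference where fewer than 2 were counted), and, for genotype, the 10 smallest adjusted p values with Etv4 and Etv5; unnamed models and, for genotype, X- and Y-linked genes were left out. Other genes were picked out from the lists after their values were seen: Maf, Dab2, Clcn5, Slc5a2, Slc4a4, Slc22a2, Umod, Calb1, Slc12a3, Podxl, Wt1, Wnt4, Slc4a1, Hbb-b1, Ddx3y and the genotype calls among list members. Same-numbered libraries were not treated as pairs: correlations of their deviations were 0.257, 0.104, -0.13 and 0.372 for numbers 1 to 4. Some genes picked by this rule are not reported here. Gene positions are from GENCODE M21 on GRCm38, the assembly of mm10. Promoters are from RefSeq on GRCm38.p6. Alternatives covered filters, the added value, scaling, covariates, libraries left out, thresholds and weights. Python 3.11.15 and matplotlib 3.10.9 drew the figures.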

Additional observations from a re-analysis of the deposited data

Results flagged for a closer look

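Of the values examined for a library set apart from the rest of its group, 4 were noted. Chance flags about 1 in 20 groups. The values examined were those of the 4 markers, the gene list scores, globin ratios and library totals, so some flags can arise by chance. Hnf4a itself set the nascent class, and the endocytosis list holds the markers Lrp2 and Cubn. Control 1 had the lowest Hnf4a of the 5 nascent libraries, 1.51 as log2(normalized count + 1), with a gap to the next library of 0.770 of the range. It also had the lowest mean centred level of the proximal tubule endocytosis list among them, -1.90 (gap 0.712 of the range). Control 4 had the highest share of Lars2 counts of the 8 libraries, 18.4%, and the lowest total without Lars2, 12662972. Ddx4, a germ cell gene, was above every nascent control in control 4 and below every nascent mutant in both advanced mutants, so that its class difference was 4.20 log2 units larger in controls; the difference between genotypes was not tested, and its normalized counts were 36.0 or less in every library.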

How the results depend on the processing

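Over the named genes and the alternatives that can move a fitted class difference (added value, scaling, covariate, libraries), 1171 values moved by less than the residual spread, 132 by more, and 19 changed sign. The count of lower genes was 65 with at least 50 counts, 294 without control 4 and mutant 4 together, and 231 in mutants alone. Controls alone, with 1 advanced library, gave 712 higher and 688 lower; no depth correction gave 104 and 1487; at least 2 log2 units gave 169 and 39; no overlap alone gave 1531 and 1514. Leaving out each library gave 423 to 612 higher and 120 to 258 lower.

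Genotype counts depended more on the settings (higher, then lower): 19 and 53 with no filter, 51 and 69 with total-count scaling, 153 and 28 with no depth correction, 12 and 33 with no class term, 11 and 36 with Hnf4a level, 11 and 26 without trend, and 386 and 544 with library weights. The higher count was 30 without control 4 and mutant 4 and 30 in nascent libraries alone. With the replicate number as a block beside the class term, 2 rose and 12 fell, 1 of 19 nephron progenitor genes among them; 3 of 4 controls were most like the mutant of the same number. Leaving out each library gave 13 to 152 and 37 to 186. Of the named genotype genes 218 values kept their call and 24 lost it.

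Sign changes concerned genes of small difference or low counts. With no depth correction Cldn5 was -0.00058, Egfl7 -0.26, Gata4 -0.24, Shh -0.69 and Bnip3 -0.25. With 1 library left out Shh ran from -0.065 to 0.22, Ppara from -2.51 to 0.66 (highest without control 4), Gata4 from -0.20 to 0.67 and Ddx4 from -0.79 to 0.20. Without control 4 and mutant 4 Shh was -0.30, Gata4 -0.33 and Acan 0.066. Mutants alone gave -0.0081 for Shh, 0.66 for Ppara and -0.21 for Gata4. Ddx4 was 0.26 with 10 added and 1.90 in controls alone. The cause was not tested. Low depth of control 4 limits genes of few counts.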
